A study of Mus musculus with 6 samples.

Results

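The 4 mature strands of 2 mouse microRNA (miRNA) hairpins, Mir21a and Mir210, were followed in nephron progenitor cells, the self-renewing cells of the kidney cortex that give rise to nephrons. They were taken by name, as mmu-miR-21a-5p, mmu-miR-21a-3p, mmu-miR-210-3p and mmu-miR-210-5p (the species prefix is dropped from here on), and each matched 1 row of the 1034 distinct miRNAs in the authors' deposited table. CD1 mice were the source, either embryos at E14.5, in days of gestation, or newborns on the day of birth (P0), with 3 libraries per stage and no treatment or genetic alteration named in the labels. Each library was a pool of up to 24 kidneys from 1 litter, and cells were selected on magnetic beads through the surface integrin Itga8. The table holds small RNA alone, so the identity of the sorted cells could not be checked against messenger RNA markers of nephron progenitors.

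A miRNA hairpin is cut by Drosha and then by Dicer into a short duplex, and 1 strand, the guide, is usually retained in Argonaute while the other, the passenger, is mostly degraded. The guide finds messenger RNAs by pairing through its seed, bases 2 to 8. miR-21 is known for its induction in injured and fibrotic kidney and for repressing Pdcd4 and Spry1. miR-210 is known as a direct target of hypoxia-inducible factor, and it represses Iscu, which serves the assembly of mitochondrial iron-sulphur clusters. The prenatal kidney develops at low oxygen tension, and mouse nephron progenitors are exhausted soon after birth.

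The mature sequences are given first because the seed sets which messenger RNAs can pair and base composition returns in the results below. They are from RefSeq (build GRCm38.p6), 5′ to 3′, with the seed in capitals.
miR-21a-5p: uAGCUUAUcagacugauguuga
miR-21a-3p: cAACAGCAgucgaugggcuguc
miR-210-3p: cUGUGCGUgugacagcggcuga
miR-210-5p: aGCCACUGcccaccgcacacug
The 4 seeds differ from each other. In RefSeq the seed of miR-21a-5p is also that of miR-21c, which was not analysed here, and among the mature sequences of the RefSeq table used here, which names 885 of the 1034 deposited miRNAs, no further one carried any of the 4 seeds. GC content was 36.4% in miR-21a-5p, 59.1% in miR-21a-3p, 63.6% in miR-210-3p and 68.2% in miR-210-5p.

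In the mm10 coordinates of the table, which equalled those of RefSeq for the 4 strands, miR-21a-5p lies at chr11:86584120-86584141 and miR-21a-3p at chr11:86584082-86584103, on the minus strand. In GENCODE M21 both fall in exon 12 of Vmp1, a gene of autophagosome formation on the same strand, within its untranslated region. miR-210-3p lies at chr7:141221407-141221428 and miR-210-5p at chr7:141221445-141221466, also on the minus strand. Mir210 is between annotated genes there, 2725 bases from Rassf7 and 7290 bases from Phrf1. The Mir210 hairpin is shown because its strands pair with each other across the loop, with the 5p strand first and the 3p strand second in capitals.
Mir210 hairpin: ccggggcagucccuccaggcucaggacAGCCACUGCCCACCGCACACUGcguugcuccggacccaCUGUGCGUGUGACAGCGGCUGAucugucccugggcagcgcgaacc

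Levels are in TPM, the deposited unit, which corrects reads for row length and for the library total. Values of a stage are listed in the order of replicates 1, 2 and 3 throughout. The recovered reads numbered 2649506, 23691028 and 5128723 for E14.5 and 34934526, 22263624 and 21508833 for P0. P0 replicate 1 stood apart from its group, its profile over the 670 tested miRNAs having a mean Pearson r of 0.948 to the earlier stage and 0.908 to its own (a description across miRNAs, which are not independent). The median log2 fold change of those 670 miRNAs, P0 over E14.5, was −1.20 on the TPM scale; scaling by median of ratios, which levels the typical miRNA between libraries, brought it to −0.17. Results are therefore given on both scales. The libraries are from separate litters, and the labels name no sequencing batch.

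miR-21a-5p, the guide strand of Mir21a, was lower at P0 in TPM. It had 5369, 2783 and 3833 TPM at E14.5 against 1758, 379 and 435 TPM at P0. Each P0 library lay below each E14.5 library, and P0 replicate 1 was the closest to the earlier stage. The means were 3995 ± 1300.3 TPM before birth against 857 ± 780.0 TPM at birth (SD, n = 3), a ratio of 4.66. In bulk samples a smaller share of the cells that hold a miRNA and less of it per cell cannot be told apart. On the log2(TPM + 1) scale the difference was −2.54 (SE 0.62, limma adjusted p = 0.0101). Without P0 replicate 1 it was −3.24 (limma adjusted p = 1.29e-05), and the call was lost without E14.5 replicate 1 (−2.30, limma adjusted p = 0.0513) or E14.5 replicate 3 (−2.54, limma adjusted p = 0.0531).

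Once libraries were scaled, miR-21a-5p was not called. The scaled levels were 3507, 1871 and 2208 at E14.5 against 1979, 708 and 758 at P0, so P0 replicate 1 fell within the E14.5 range. The scaled difference was −1.26 (SE 0.51, limma adjusted p = 0.118), and it was −1.78 without P0 replicate 1 (limma adjusted p = 0.00251). The direction was negative under each of the 25 alternatives run. Not all of these could change it. The filters, the replicate block and the summed rows left the TPM estimate at −2.54, and leaving out a library cannot reverse separated groups. In the authors' deposited table the log2 fold change of miR-21a-5p was −1.26 with a standard error of 0.64 and an adjusted p-value of 0.158.

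miR-210-3p, the guide strand of Mir210, did not differ detectably in TPM and was higher at P0 in each library after scaling. It had 66.6, 128 and 101 TPM at E14.5 against 244, 68.8 and 105 TPM at P0. The stages overlapped, and the high P0 mean was that of replicate 1. The means were 98.4 ± 30.7 TPM before birth against 139 ± 92.4 TPM at birth (SD, n = 3). The log2 difference in TPM was 0.34 (SE 0.62, limma adjusted p = 0.659), and it turned to −0.16 without P0 replicate 1 (limma adjusted p = 0.740).

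The scaled levels of miR-210-3p were 43.5, 85.9 and 58.1 at E14.5 against 275, 128 and 183 at P0. Here no P0 library overlapped the E14.5 range. The scaled difference was 1.62 (SE 0.50, limma adjusted p = 0.0595), above the threshold of 0.05. Without P0 replicate 1 it was 1.28 and passed (SE 0.39, limma adjusted p = 0.0264). In the authors' deposited table the log2 fold change of miR-210-3p was 1.40 with a standard error of 0.60 and an adjusted p-value of 0.0937.

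**Figure D1:**
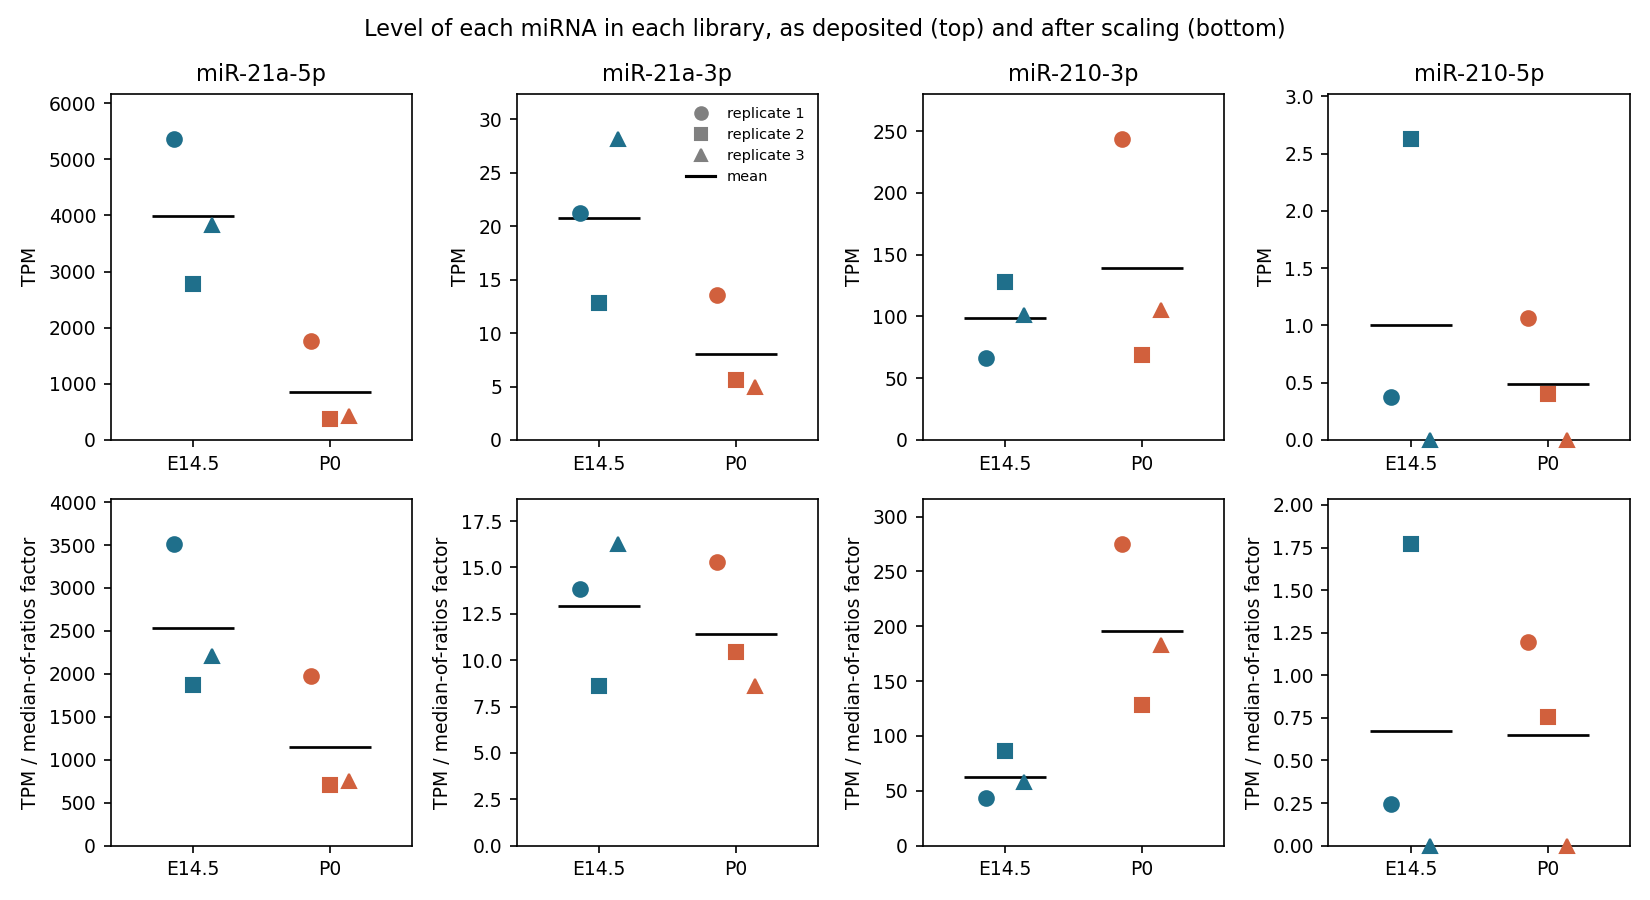
Level of each miRNA strand in each library, in TPM as deposited (upper panels) and in TPM divided by the median-of-ratios factor (lower panels); symbols mark the replicate and the line the mean of 3 libraries. In TPM miR-21a-5p separates the stages and miR-210-3p does not, and after scaling the reverse holds.

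miR-21a-3p, the passenger strand of Mir21a, was much rarer. It had 21.2, 12.8 and 28.2 TPM at E14.5 against 13.6, 5.58 and 4.93 TPM at P0. P0 replicate 1 exceeded E14.5 replicate 2, so the stages overlapped. The means were 20.7 ± 7.70 TPM before birth against 8.03 ± 4.81 TPM at birth (SD, n = 3). The log2 difference was −1.33 in TPM (SE 0.61, limma adjusted p = 0.103) and −0.15 after scaling (SE 0.54, limma adjusted p = 0.873). It was −1.73 in TPM without P0 replicate 1, where it passed the threshold (limma adjusted p = 0.0128). In the authors' deposited table the log2 fold change of miR-21a-3p was 0.09 with a standard error of 0.82 and an adjusted p-value of 0.952.

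miR-210-5p, the passenger strand of Mir210, was near the limit of detection. It had 1, 62 and 0 reads at E14.5 against 37, 9 and 0 reads at P0, or 0.379, 2.63, 0, 1.06, 0.405 and 0 TPM. A count of 0 allows up to 0.587 TPM in E14.5 replicate 3 and 0.140 TPM in P0 replicate 3, at a floor of 3 reads. Its mean of 0.746 TPM over the 6 libraries was below the filter of 1 TPM, so it was the only strand of the 4 left untested.

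Calls among the strands are given beside the background of all miRNAs. Of the 3 strands that passed the filter, 1 was called in TPM, miR-21a-5p, which was lower at P0, while 34.2% of the 670 tested miRNAs were called, 32.8% lower and 1.34% higher. After scaling none of the 3 was called, at 10.9% of all tested miRNAs (5.67% higher and 5.22% lower), although miR-21a-5p and miR-210-3p had unadjusted limma p-values of 0.0330 and 0.00853. The authors' deposited table also called none of the 4 strands at 0.05. The stages did not overlap for 1 of the 3 strands in TPM, miR-21a-5p, against 49.6% of all tested miRNAs (46.4% lower and 3.13% higher at P0). After scaling they did not overlap for 1 of 3, miR-210-3p, against 35.4% (15.8% higher and 19.6% lower).

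Those overall numbers moved with single libraries. In TPM 229 miRNAs were called (9 higher, 220 lower), and 111, 66, 410, 114 and 136 without E14.5 replicate 1, E14.5 replicate 3 and P0 replicates 1, 2 and 3. After scaling 73 were called, and 10, 327 and 3 without E14.5 replicate 2, P0 replicate 1 and P0 replicate 3. The scaled limma count was 0 without E14.5 replicate 1, E14.5 replicate 3 or P0 replicate 2, with 145, 139 and 145 miRNAs at an unadjusted p under 0.05. In the ordering of log2 differences in TPM, 15.1% of tested miRNAs lay below miR-21a-5p, 45.2% below miR-21a-3p and 86.0% below miR-210-3p. After scaling these shares were 18.8%, 50.7% and 88.4%; scaling shifts nearly all miRNAs alike, so it leaves such an order in place by construction.

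**Figure D2:**
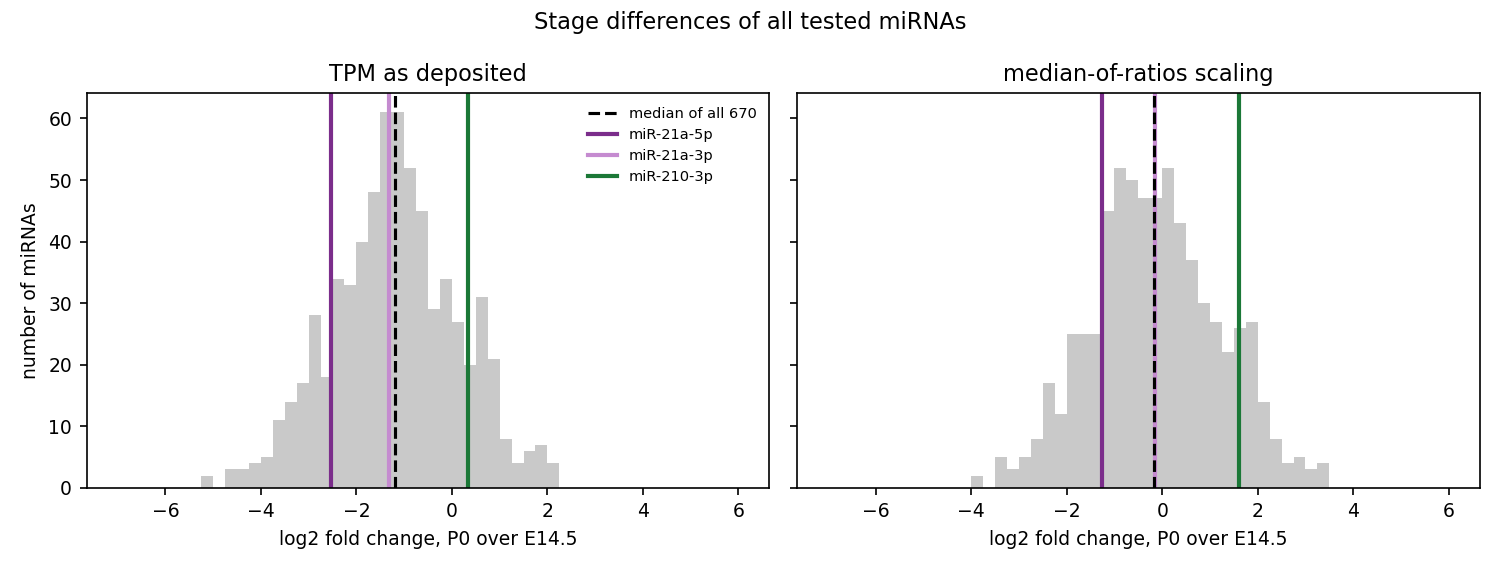
Histogram of the log2 fold change, P0 over E14.5, of the 670 tested miRNAs in TPM (left) and after median-of-ratios scaling (right), with the 3 tested strands as coloured lines and the median dashed. Scaling shifts the whole distribution from a median of −1.20 to −0.17, and miR-21a-5p stays in the lower and miR-210-3p in the upper part.

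The ratio of miR-21a-5p to miR-210-3p within a library is free of the scaling between libraries, and it was lower in each P0 library. There were 80.6, 21.8 and 38.0 reads of miR-21a-5p per read of miR-210-3p at E14.5 against 7.21, 5.52 and 4.14 at P0. The lowest E14.5 ratio was above the highest P0 ratio. The log2 ratio of TPM + 1 averaged 5.33 ± 0.94 before birth against 2.44 ± 0.40 at birth (SD, n = 3), a difference of −2.88 or 7.38-fold. By exact permutation, two-sided, p was 0.1, which is as low as 3 libraries against 3 can reach, and 0.15 after adjustment over the 3 ratios computed. Over the 10 alternatives, which include leaving out each library, the difference ranged from −3.33 to −2.39. The GC correction described below was not among them. Ratios to miR-210-3p were lower at P0 without overlap for 53.4% of the other 669 tested miRNAs (53.8% in either direction). Ratios to miR-21a-5p were higher without overlap for 33.6% and lower for 2.09% (35.7% in either direction), so this separation is shared by many miRNAs.

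Within the Mir21a hairpin the passenger strand took a larger share of the reads in each P0 library. miR-21a-3p made up 0.393% (95% Wilson interval 0.303 to 0.510), 0.458% (0.410 to 0.513) and 0.730% (0.621 to 0.859) of the reads of both strands at E14.5. It made up 0.766% (0.701 to 0.838), 1.45% (1.22 to 1.73) and 1.12% (0.927 to 1.35) at P0. The groups were separated by a narrow gap, between E14.5 replicate 3 and P0 replicate 1, whose intervals overlapped. The log2 ratio of miR-21a-5p to miR-21a-3p averaged 7.54 ± 0.45 before birth against 6.32 ± 0.54 at birth (SD, n = 3), a difference of −1.21. The exact two-sided permutation p was 0.1, again the smallest possible, and 0.15 adjusted over the 3 ratios.

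The same was computed for 224 hairpins whose strands were both tested. Their log2 ratio of the major to the minor strand changed by a median of −0.012, with quartiles of −1.11 and 1.14, and 47 of the hairpins had a lower value than Mir21a. The stages did not overlap for 32.1% of the hairpins, and for 14.3% with the major strand relatively lower at P0. The arm ratio of Mir21a thus lay near the lower quartile of all hairpins.

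Within Mir210 the passenger share could not be resolved. miR-210-5p made up 0.565% (95% Wilson interval 0.0998 to 3.13), 2.02% (1.58 to 2.58) and 0% of the reads of both strands at E14.5, the last of 515 reads, which allows a share of up to 0.583%. It made up 0.434% (0.315 to 0.598), 0.586% (0.308 to 1.11) and 0% at P0, the last of 2261 reads, which allows up to 0.133%. E14.5 replicate 2 was the highest and the stages overlapped. With miR-210-5p below 1 TPM in 4 of the 6 libraries, the log2 ratio of the strands is set there mostly by the added 1 TPM and not by reads. No mean or test of it is therefore given. The E14.5 libraries also disagreed with each other, at 2.02% in replicate 2 and up to 0.583% in replicate 3, so no stage difference was resolved.

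**Figure D3:**
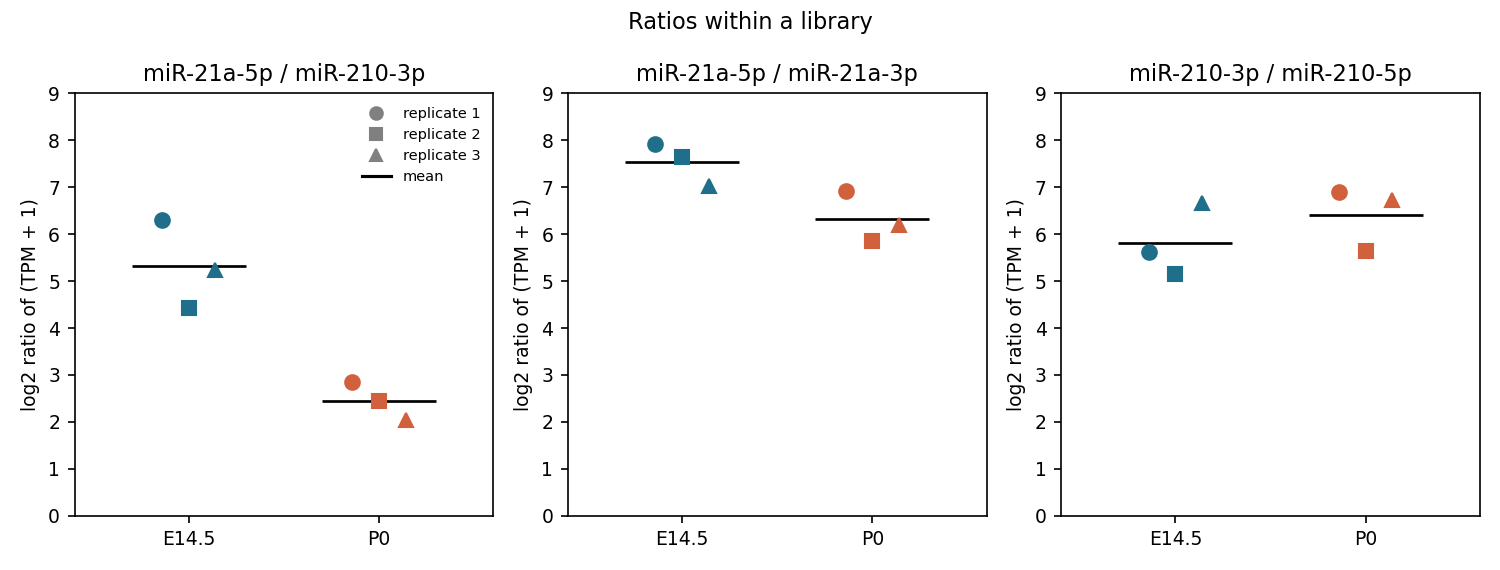
Log2 ratio of TPM + 1 between 2 strands of the same library, for miR-21a-5p over miR-210-3p and for the guide over the passenger strand of each hairpin; symbols mark the replicate and the line the mean of 3 libraries. The stages separate widely for the ratio of the guide strands, narrowly for Mir21a and not for Mir210, where miR-210-5p was below the added 1 TPM in E14.5 replicates 1 and 3 and P0 replicates 2 and 3, so that those points are set mostly by it.

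In abundance, miR-21a-5p ranked 41 of 1034 by mean TPM at E14.5 and 73 at P0, while miR-210-3p ranked 245 at E14.5 and 151 at P0. At E14.5 miR-21a-5p stood between miR-24-3p (4517 ± 1028 TPM) and miR-103-3p (3975 ± 1003 TPM). At P0 it stood between miR-676-3p (858 ± 178 TPM) and miR-15b-5p (780 ± 961 TPM). miR-210-3p stood between miR-376a-3p (101 ± 34.0 TPM) and miR-1306-3p (97.7 ± 21.8 TPM) at E14.5, and between miR-674-3p (146 ± 82.2 TPM) and miR-203-3p (136 ± 110 TPM) at P0 (SD, n = 3). None of these neighbours differed from its reference strand by more than their spread. The 4 strands themselves kept the order miR-21a-5p, miR-210-3p, miR-21a-3p, miR-210-5p in each of the 6 libraries.

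Single libraries varied in opposite directions for the guide strands within E14.5. miR-21a-5p was highest in replicate 1 and lowest in replicate 2, and miR-210-3p was lowest in replicate 1 and highest in replicate 2. These were the libraries with the fewest and the most reads of that stage. Summed TPM of 8 miRNAs of tubule epithelium, chief among them the miR-200 family, was 24329, 4660 and 15278 at E14.5, in the same order as miR-21a-5p. Sums of the endothelial markers (44921, 26608 and 28678) and leukocyte markers (1540, 797 and 1239) given below had that order too. The stromal and erythroid sums did not. The part of depth and of any of these cell types in the levels of miR-21a-5p and miR-210-3p was not tested.

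Markers of other cell types are given on both scales, beside 32.8% of all tested miRNAs called lower in TPM and 5.22% after scaling. The tubule epithelium markers summed to 2447, 718 and 1113 TPM at P0, below each E14.5 library, with miR-215-5p at 0 in E14.5 replicate 1. Of the 7 tested, 5 were called lower in TPM and 3 after scaling. Those 5 were miR-200a-3p, miR-200b-3p, miR-200c-3p, miR-141-3p and miR-429-3p, all of the miR-200 family. Scaling removed the calls of miR-200c-3p and miR-141-3p. Neither miR-192-5p nor miR-194-5p was called on either scale. The log2 difference of miR-192-5p was −0.65 before scaling (limma adjusted p = 0.394) and turned positive, 0.63, with it. That of miR-194-5p was −1.95 (limma adjusted p = 0.0676), which scaling brought to −0.68. The 2 endothelial markers, both strands of miR-126a, summed to 26608 to 44921 TPM at E14.5 and 5634 to 8158 TPM at P0. Both were called lower in TPM and 1, miR-126a-5p, after scaling. These sums of tubule epithelium and endothelium did not overlap between stages on the TPM scale or after scaling. Of all tested miRNAs, 46.4% were lower at P0 without overlap in TPM and 19.6% after scaling. miR-126a-3p, the larger part of the endothelial sum, did overlap after scaling.

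The 5 stromal and smooth muscle markers summed to 83971 to 100537 TPM at E14.5 and 33349 to 45658 TPM at P0, with 3 called lower in TPM and 0 called after scaling by limma (1 at an unadjusted p under 0.05). Their scaled sums were 56443 to 60680 at E14.5 and 51415 to 78804 at P0, so the stages overlapped. The 5 leukocyte markers summed to 797 to 1540 TPM at E14.5 and 507 to 751 TPM at P0, with 1 called lower in TPM, miR-155-5p, and 1 called higher after scaling, miR-223-3p. Their scaled sums, 536 to 1006 at E14.5 and 846 to 946 at P0, overlapped. The 5 erythroid markers summed to 305 to 462 TPM at E14.5 and 165 to 336 TPM at P0, which overlapped, with 1 called lower in TPM, miR-451a, and 0 called after scaling by limma (3 at an unadjusted p under 0.05, miR-451a lower and miR-486a-5p and miR-486b-5p higher). The log2 differences of miR-486a-5p and miR-486b-5p, near-identical copies, were 0.76 and 0.71 in TPM and 2.03 and 1.97 after scaling. The scaled sums of the list were 297, 205 and 266 at E14.5 against 186, 616 and 585 at P0, so P0 replicates 2 and 3 were above the E14.5 range and P0 replicate 1 below it. None of the endothelial, leukocyte, stromal or erythroid markers was at 0 in any library. The part of these cell types in the fall of miR-21a-5p in TPM, which they can also express, was not tested.

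Base composition also moved with the stage difference. Among the tested miRNAs whose GC content lay within 5 percentage points of that of miR-21a-5p, 140 in number, the median log2 difference in TPM was −1.90, with quartiles of −2.83 and −0.95. The value of miR-21a-5p, −2.54, was inside those quartiles. Around miR-21a-3p the median of 148 miRNAs was −0.79, with quartiles of −1.52 and 0.33, and its own −1.33 was inside them. Around miR-210-3p the median of 112 miRNAs was −0.63, with quartiles of −1.34 and 0.29, and its own 0.34 was just above the upper quartile. The guide strand of Mir21a was thus poorer in GC than its passenger and lay among miRNAs with a lower median. The part of base composition in these values was not tested beyond the correction that follows. With a GC correction chosen after seeing the data, the difference was −0.71 for miR-21a-5p (limma adjusted p = 0.260), −0.64 for miR-21a-3p (limma adjusted p = 0.474) and 0.82 for miR-210-3p (limma adjusted p = 0.343). This correction also levels the libraries, with a median of −0.05 over the 582 miRNAs it covered. Scaling alone gave −1.26, −0.15 and 1.62 in the same order of strands. The corrected values of the Mir21a strands were close to each other, with standard errors of 0.41 and 0.58, whereas their uncorrected values were −2.54 and −1.33. The values of the guide strands were also closer together than without the correction. Subtracting a trend with GC content moves strands of unlike GC content unequally by construction, and what this closeness reflects was not tested.

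**Figure D4:**
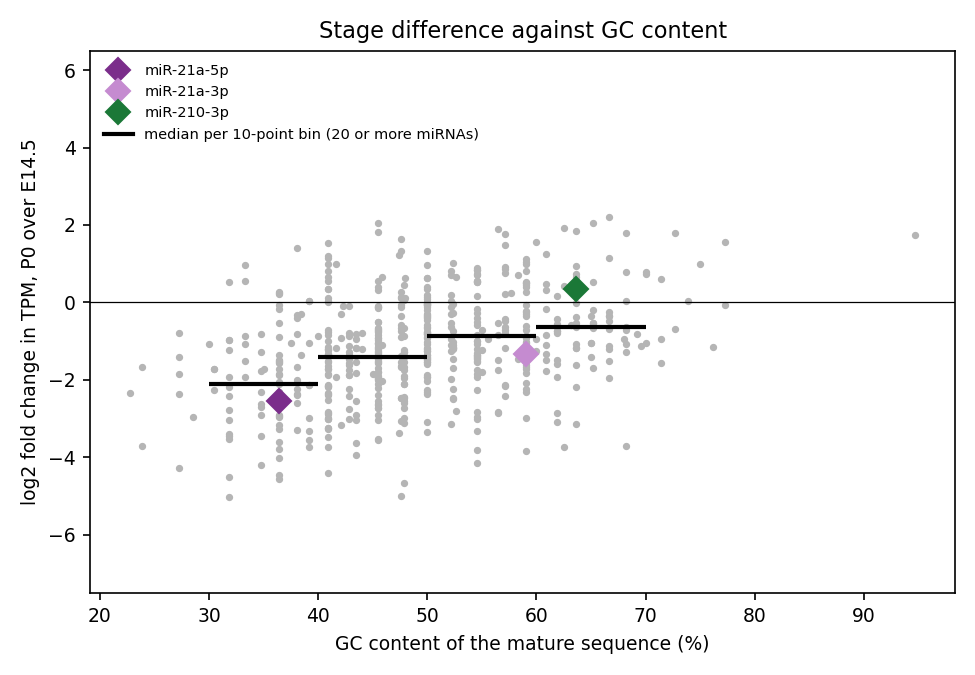
Log2 fold change in TPM, P0 over E14.5, against GC content of the mature sequence for the tested miRNAs with a RefSeq sequence (grey points), with the median per bin of 10 percentage points (black bars, for bins with 20 or more miRNAs) and the 3 tested strands (diamonds). The median around the GC content of miR-21a-5p is −1.90, around that of miR-21a-3p −0.79 and around that of miR-210-3p −0.63. The strands of Mir21a lie below their medians but within the quartiles, and miR-210-3p lies above its own.

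The miRNAs with the most similar profiles were found by the root mean square difference of mean-centred log2(TPM + 1) over the 6 libraries, among 431 others with a mean of at least 10 TPM. For miR-21a-5p these were miR-145a-3p (0.19), miR-190a-5p (0.19), miR-450b-3p (0.23), miR-669f-3p (0.25) and miR-218-5p (0.26), against a median of 0.98 over all compared. miR-145a-3p, for example, had 447, 274 and 433 TPM at E14.5 against 201, 32.0 and 48.0 TPM at P0. miR-218-5p, the most abundant of the 5, had 6816, 5599 and 7120.5 TPM at E14.5 and 2834, 834 and 824 TPM at P0. In each of these, P0 replicate 1 was the highest P0 library, as it was for miR-21a-5p. They were picked for likeness over these same libraries, so such sharing follows from the choice.

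For miR-210-3p the nearest profiles were miR-125b-5p (0.26), miR-676-5p (0.27), miR-361-3p (0.28), miR-27a-5p (0.31) and miR-532-5p (0.31), against a median of 1.19. miR-125b-5p had 9546, 16114 and 13915 TPM at E14.5 against 36003, 15206 and 14742 TPM at P0. miR-361-3p had 54.0, 91.3 and 58.1 TPM at E14.5 and 147, 51.5 and 47.4 TPM at P0. P0 replicate 1 was the highest of all 6 libraries for each of these 5 miRNAs, as for miR-210-3p, which again follows from the choice.

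Of 19 other miRNAs described elsewhere as responding to oxygen or acting on hypoxia-inducible factor, 19 were tested and 6 were called in TPM, each lower at P0, a share close to the 32.8% of all tested miRNAs. Their median log2 difference was −1.25, beside −1.20 over all tested miRNAs, and 0.034 after scaling, beside −0.17. After scaling 3 were called, each lower, beside 5.22% of all tested miRNAs called lower. miR-20b-5p, of the miR-17 seed family, fell from 210 ± 23.7 TPM to 11.2 ± 13.2 TPM (SD, n = 3; −4.66, limma adjusted p = 0.00332). miR-200b-3p and miR-429-3p, which repress the Zeb factors, fell from 2438 ± 1543 to 124 ± 132 TPM and from 2875 ± 1884 to 152 ± 147 TPM (SD, n = 3), with limma adjusted p-values of 0.00344 and 0.00396. These 3 were also the ones called after scaling, with differences of −3.48, −3.27 and −3.13. Their scaled calls were lost without E14.5 replicate 1 (limma adjusted p = 0.155 for each), E14.5 replicate 3 (0.169 for each), P0 replicate 2 (0.0948 to 0.0999) or P0 replicate 3 (0.0561 to 0.0744), and that of miR-20b-5p also without E14.5 replicate 2 (0.0579). miR-204-5p, a miRNA of differentiated tubule, had a difference of −1.96 (limma adjusted p = 0.0193) and miR-155-5p, a leukocyte miRNA, of −1.77 (limma adjusted p = 0.0349), and neither was called after scaling (−0.69 and −0.50). The calls of both in TPM were lost without E14.5 replicate 1 or 3 or P0 replicate 2 or 3, with limma adjusted p-values of 0.0893, 0.0782, 0.117 and 0.0548 for miR-204-5p and 0.134, 0.133, 0.152 and 0.115 for miR-155-5p. Both miR-200 family members are also among the tubule epithelium markers, and miR-155-5p among the leukocyte markers. The list's median was thus close to that of all miRNAs on the TPM scale.

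Of 22 miRNAs described elsewhere in kidney injury or fibrosis, 20 were tested and 7 were called in TPM, each lower at P0, a share close to the 32.8% of all tested miRNAs. Their median log2 difference was −1.20, as over all tested miRNAs, and 0.090 after scaling. miR-18a-5p, of the miR-17 cluster, fell from 2894 ± 1147 to 229 ± 85.03 TPM (SD, n = 3; −3.63, limma adjusted p = 0.00332), and it was the 1 called lower after scaling. miR-214-3p, made from the Dnm3os transcript of mesenchyme, fell from 637 ± 229 to 81.5 ± 33.2 TPM (SD, n = 3; −2.98, limma adjusted p = 0.0048). miR-377-3p fell from 47.8 ± 25.5 to 4.98 ± 2.67 TPM (SD, n = 3; −2.96, limma adjusted p = 0.00727). miR-146a-5p, a brake on innate immune signalling, had a difference of −2.12 (limma adjusted p = 0.0148), and miR-126a-3p, the endothelial miRNA, of −1.97 (limma adjusted p = 0.00611). After scaling these 4 were not called, with differences of −1.71 for miR-214-3p, −1.80 for miR-377-3p, −0.85 for miR-146a-5p and −0.69 for miR-126a-3p. The TPM call of miR-146a-5p was lost without E14.5 replicate 1 or 3 or P0 replicate 2 or 3 (limma adjusted p = 0.0668, 0.0576, 0.0669 and 0.0775), and that of miR-377-3p without E14.5 replicate 3 (0.0519). After scaling 3 were called higher and 1 lower, beside 5.67% and 5.22% of all tested miRNAs. The 3 higher, named after their values were seen, were miR-29a-3p at 2.39 (limma adjusted p = 0.0309), miR-223-3p at 1.63 (0.0401) and miR-182-5p at 1.92 (0.0333). As no miRNA was called by limma after scaling without E14.5 replicate 1, E14.5 replicate 3 or P0 replicate 2, these 4 scaled calls were lost there too, and that of miR-18a-5p was also lost without P0 replicate 3 (limma adjusted p = 0.0744). Of the called members, miR-214-3p and miR-199a-3p are also among the stromal, miR-126a-3p the endothelial, and miR-155-5p and miR-223-3p the leukocyte markers above. The injury and oxygen lists share miR-155-5p, miR-199a-5p and miR-24-3p. The fall of miR-21a-5p in TPM was larger than the median of this list and smaller than that of its 3 most changed members.

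**Figure D5:**
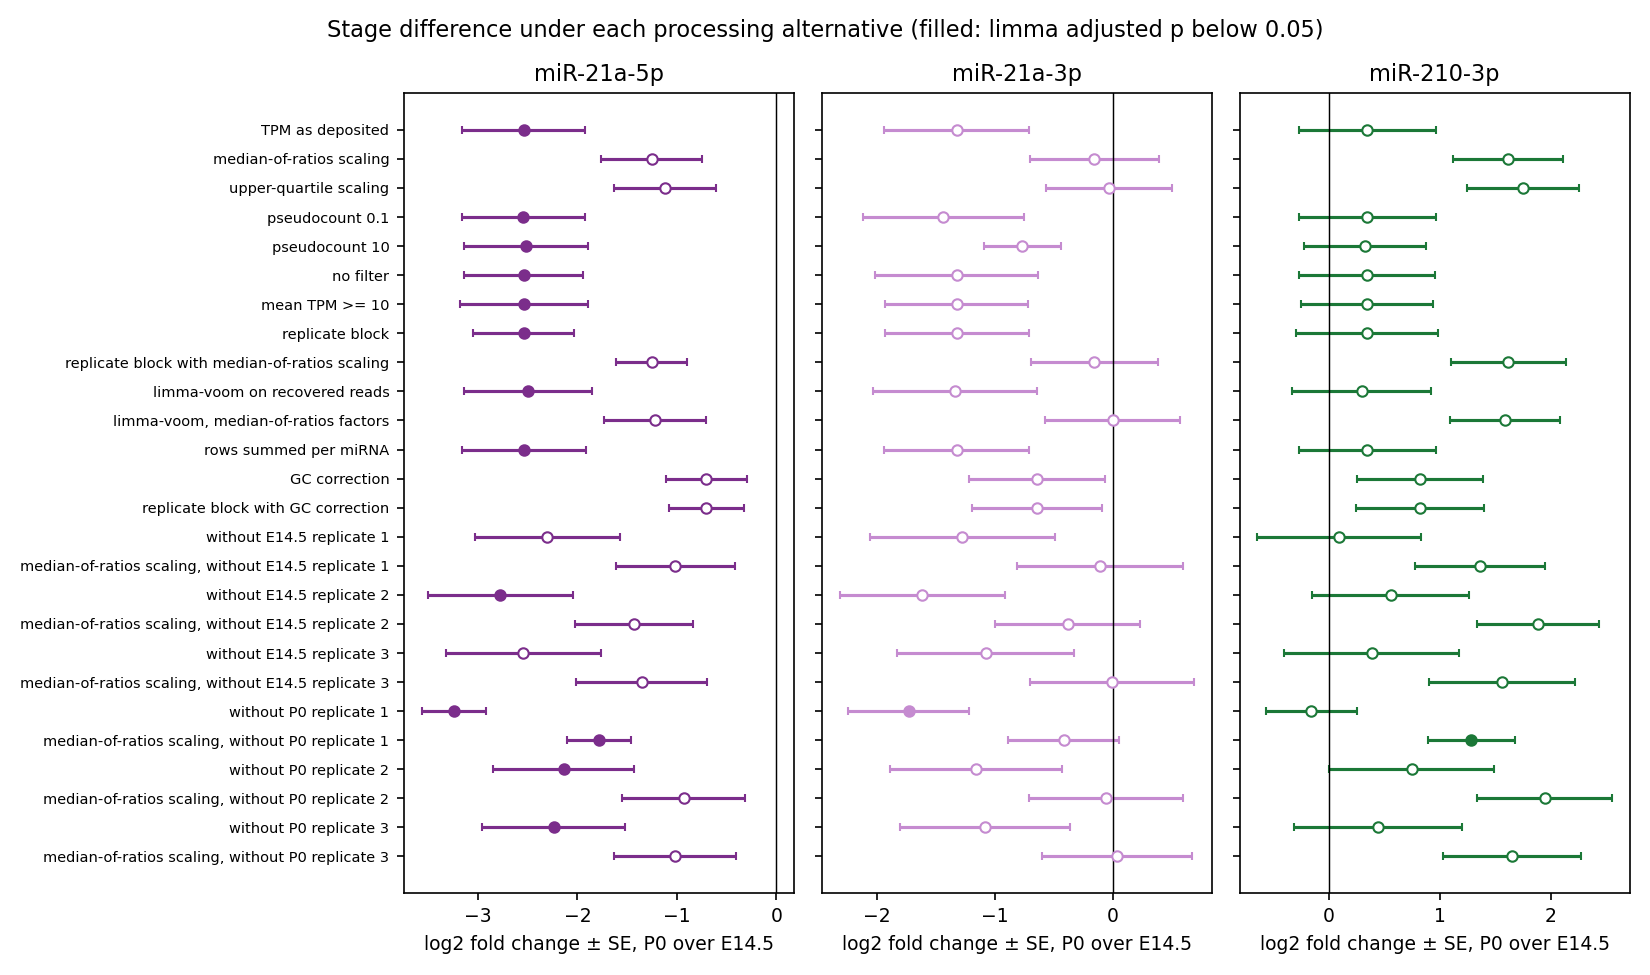
Log2 fold change, P0 over E14.5, with its standard error for the 3 tested strands (columns) under the deposited TPM scale and 25 alternatives (rows); filled points have a limma adjusted p below 0.05. miR-21a-5p stays negative throughout, miR-210-3p is negative in 1 alternative and miR-21a-3p lies between −0.42 and 0.035 in the alternatives with median-of-ratios scaling.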

How the data were processed

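Per the labels' protocols, small RNA was converted to libraries by a QIAseq kit for miRNAs. The submitters' processing notes name featureCounts, DESeq2 1.26.0 and mm10; the aligner, trimming and use of molecular tags are not given in the sources used here. The authors deposited TPM per mature miRNA, a normalised mean signal, and the log2 fold change, test statistic (a score) and p-values of their own comparison, per the file headers. Each TPM value times the row's end minus start was a whole multiple of a step per library (100% of values, tolerance 1e-06), and the reads so recovered gave the authors' deposited mean signal within 4.75e-15. For 52 miRNAs with several rows the row with most reads was used.

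limma 3.58.1 (R 4.3.3) was fitted with a variance trend on log2(TPM + 1) for the 670 miRNAs averaging 1 TPM or more over the 6 libraries, with the stage as the only term. Adjustment was by Benjamini and Hochberg, with calls below 0.05; fold changes on this scale understate low miRNAs. The fit was tested on simulated data, where it recovered most changed miRNAs and also called some unchanged ones, whose TPM shift with the total. Ratios were tested by exact permutation. Floors are 3 reads, and intervals (95% Wilson) cover counting error only. GC content was known for 582 of the 670. Named miRNAs are the 4 strands, any that share a seed with them, the 5 nearest profiles of each guide, rank neighbours, and up to 5 called members of the oxygen and injury lists in each direction, largest change first. Marker miRNAs and the remaining list members were named after their values were seen. Alternatives covered scaling, pseudocount, filter, limma-voom, summed rows, the replicate number as a block, and leaving out each library. The 4 strands and the lists were chosen with earlier results of these data known.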

Additional observations from a re-analysis of the deposited data

How the results depend on the processing

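The fall of miR-21a-5p kept its direction in the 25 alternatives run and its call in 12. The filters, the replicate block, the summed rows and leaving out a library in TPM could not have reversed that direction. It was not called with median-of-ratios scaling (−1.26, with or without the replicate block), upper-quartile scaling (−1.12), limma-voom on scaled reads (−1.22) or the GC correction (−0.71, with or without the block). Leaving out 1 library gave −3.24 to −2.14 in TPM; with scaling it gave −1.02, −1.43 and −1.35 without E14.5 replicates 1, 2 and 3, and −1.78, −0.93 and −1.02 without P0 replicates 1, 2 and 3, of which only the −1.78 was called. With 1 library left out, miR-21a-3p ranged from −1.73 to −1.08 and miR-210-3p from −0.16 to 0.75. With scaling, miR-21a-3p ranged from −0.42 (without P0 replicate 1) to 0.035 (without P0 replicate 3), and miR-210-3p ranged from 1.28 (without P0 replicate 1, called) to 1.94. miR-21a-3p was 0.00053 in limma-voom on scaled reads, and miR-155-5p was 0.15 with the GC correction, with or without the block. The list medians became 0.034 (oxygen) and 0.090 (injury) with scaling. The ratios of miR-21a-5p to miR-210-3p and to miR-21a-3p kept their direction in the 10 alternatives run for each. The GC correction was not among those, and with it the Mir21a strands had differences of −0.71 and −0.64. The ratio of the Mir210 strands is set by the pseudocount and could not be computed without one, as miR-210-5p was at 0 in 2 libraries. For these changes the cause was not tested. The number of called miRNAs was 73 with median-of-ratios scaling, 63 with upper-quartile scaling (38 higher, 25 lower), 56 with the block and median-of-ratios scaling, 28 in limma-voom on scaled reads, 64 with the GC correction and 72 with that and the block. It was 66 to 410 with 1 library left out, and with scaling 0 (without E14.5 replicate 1 or 3 or P0 replicate 2, by limma, with 145, 139 and 145 at an unadjusted p under 0.05), 10, 327 and 3. Same-numbered libraries of the stages deviated together with correlations of 0.193, 0.183 and 0.0423, so the numbers were not taken as pairs; P0 replicate 3 matched E14.5 replicate 2 best and the other 5 libraries their own number. The replicate block gave 247 calls in TPM, and miR-21a-5p was called (limma adjusted p = 0.00513). Few reads stand behind miR-210-5p, with 0 to 62 per library, and miR-21a-3p in E14.5 replicate 1, with 56.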
